A study of Mus musculus with 6 samples.

Results

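The 10 genes described here lie on mouse chromosome 7 between 15 and 20 Mb (GRCm38): Meis3, C5ar1, Npas1, Calm3, Ccdc8, Pglyrp1, Qpctl, Gpr4, Nectin2 and Pvr, in order along the chromosome. They were 10 of the 55471 genes in the deposited table and 10 of the 262 that start in this window. The members were chosen by their measured fold changes and adjusted p-values: the window was picked because it held more changed genes than any other window of 5 Mb, in the same comparison of 3xTg with NTG cells that is described below. The differences between the groups are therefore given as a description of the choice, with no test of a member or of the window.

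RNA was sequenced from FACS-sorted neural stem and progenitor cells (NSPCs) of the subgranular zone (SGZ), the layer of the hippocampal dentate gyrus where new neurons are born. There were 3 replicates from 3xTg;Nestin-YFP mice, a model of Alzheimer disease that carries mutant human APP and MAPT transgenes, and 3 from NTG;Nestin-YFP mice, the non-transgenic controls. Mice of both groups also carried Nestin-CreERT2 and the ROSA26-EYFP reporter and received tamoxifen by gavage, so that cells with Nestin promoter activity, and their progeny, became YFP-positive. Cells were sorted at postnatal day 35, 10 days after tamoxifen, as YFP-positive and propidium iodide-negative. All samples bear the strain label B6129SF2/J, but the NTG mice were kept as a colony of their own, and effects of colony and of genotype therefore cannot be told apart. The labels do not say how many mice, or of which sex, gave each replicate, and p-values measure the spread between these samples. The libraries held 53063475 to 81800375 assigned reads in 3xTg and 32731794 to 42576455 in NTG, so that every 3xTg library was the deeper. Along the leading principal component, which held 48.5% of the variance, 3xTg replicate 1 lay nearest to NTG. The markers of NSPCs were present and none of the 12 listed was called, but they did not move together. Sox2 had 11186, 9608 and 7311 normalized counts in 3xTg, against 11930, 11551 and 13471 in NTG, and Hopx 12318, 12197 and 9816 in 3xTg, against 13573, 13578 and 17429 in NTG. Both were lower in every 3xTg library, whereas Eomes and Mki67 had log2 fold changes of 0.51 and 0.56.

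The members do not form a pathway. Pglyrp1 encodes a secreted protein that binds bacterial peptidoglycan and is abundant in neutrophil granules, and C5ar1 the receptor for the complement fragment C5a, found mainly on myeloid cells. Gpr4 is a receptor that senses protons and is known from endothelial cells. Nectin2 and Pvr encode related immunoglobulin-like adhesion molecules that are bound by receptors of lymphocytes. Npas1 and Meis3 encode transcription factors of the bHLH-PAS and the TALE homeobox families, and Calm3 encodes calmodulin, the calcium sensor of most cells. Qpctl encodes a Golgi enzyme that turns N-terminal glutamine into pyroglutamate, and Ccdc8 a subunit of the 3M complex, whose human genes CCDC8, CUL7 and OBSL1 are mutated in a growth disorder.

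The coding sequences of Calm3 and its paralog Calm2 are shown because the results for Calm3 rest on reads being told apart from those of near relatives. The first 90 bases of each coding sequence of 450 bases are given 5′ to 3′ from the GENCODE M21 transcripts, with capitals where Calm2 differs from Calm3.
Calm3: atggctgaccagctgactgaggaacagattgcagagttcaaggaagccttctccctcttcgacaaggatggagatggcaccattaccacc
Calm2: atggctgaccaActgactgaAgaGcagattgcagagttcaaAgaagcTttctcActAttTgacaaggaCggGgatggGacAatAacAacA
Within these 90 bases, Calm2 (chromosome 17) differed from Calm3 at 15. Over the whole coding sequence it differed at 78 bases, 74 of them at the third codon position, and both genes encode the same translation of 149 codons. The longest stretch that Calm2 shared with Calm3 was 17 bases.

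The sequences before the RefSeq gene starts were looked up for all members. The set of promoters used (GRCm38.p6) held 8 of the 10, without Qpctl and Pvr. A RefSeq start can lie inside the GENCODE gene: in 5 of the 8 the stretch held exon bases, from 10 of 250 in Pglyrp1 to all 250 in Ccdc8. The 3 that touched no annotated exon, Gpr4, Npas1 and Nectin2, are shown as examples of the GC-rich starts of the members, over the 250 bases before the start on the strand of the gene. Capitals mark the GC box letters GGGCGG and the CCAAT box letters on either strand. They stand for chr7:19212288-19212537 (plus strand) for Gpr4, chr7:16476781-16477030 (minus strand) for Npas1 and chr7:19749574-19749823 (minus strand) for Nectin2.
Gpr4: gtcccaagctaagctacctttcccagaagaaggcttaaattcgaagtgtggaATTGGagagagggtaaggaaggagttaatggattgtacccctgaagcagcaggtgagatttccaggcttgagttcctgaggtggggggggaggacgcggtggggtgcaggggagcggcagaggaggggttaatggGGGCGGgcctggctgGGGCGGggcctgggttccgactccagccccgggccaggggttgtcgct
Npas1: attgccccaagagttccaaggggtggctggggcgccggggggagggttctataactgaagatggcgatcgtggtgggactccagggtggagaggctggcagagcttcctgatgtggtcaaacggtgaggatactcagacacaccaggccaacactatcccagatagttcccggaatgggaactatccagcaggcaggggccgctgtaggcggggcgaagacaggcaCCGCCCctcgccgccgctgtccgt
Nectin2: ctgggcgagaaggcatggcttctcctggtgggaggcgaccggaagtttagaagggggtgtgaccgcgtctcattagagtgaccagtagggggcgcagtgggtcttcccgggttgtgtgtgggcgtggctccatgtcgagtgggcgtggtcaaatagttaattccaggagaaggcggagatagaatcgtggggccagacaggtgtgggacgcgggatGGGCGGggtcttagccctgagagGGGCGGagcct
The GC content of these 3 was 61.2%, 62.4% and 62.0%, against a median of 52.4% over 32851 promoters. Over the 8 members it ranged from 52.8% in C5ar1 to 69.2% in Calm3, with all 8 above that median. The GC box was in 4 of the 8, against 32.7% of all promoters, and CCAAT in 2 of the 8, against 33.8%. No member held TATAAA, which 12.4% of all promoters held. ACGTG, the core bound by bHLH-PAS dimers, was in 2 of the 8 (16.6% of all), TGACAG, the core of MEIS proteins, in 1 (15.9%) and the E-box CANNTG in 4 (66.2%). Each search covered both strands, and E-boxes can overlap ACGTG. The stretches of Npas1 and Nectin2 lie within the GENCODE span of the gene, outside its exons. A match of letters is no evidence of binding, and the counts over 8 members include the stretches with exon bases.

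Of the 10 members, 9 were lower and 1, Pvr, was higher in 3xTg than in NTG cells. A call needed a limma adjusted p under 0.05 and a log2 fold change of 3xTg over NTG of more than 0.5 in either direction. All 10 members were called, as the choice required, against 2.80% of the 18664 tested genes, or 1.67% called lower and 1.13% called higher. In all 10 the 3xTg libraries lay on one side of the NTG libraries, which was so for 27.7% of tested genes. Fold changes were fitted on log2(normalized count + 1), with the standard error in brackets, and library values are in the order of replicates 1 to 3.

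**Figure D1:**
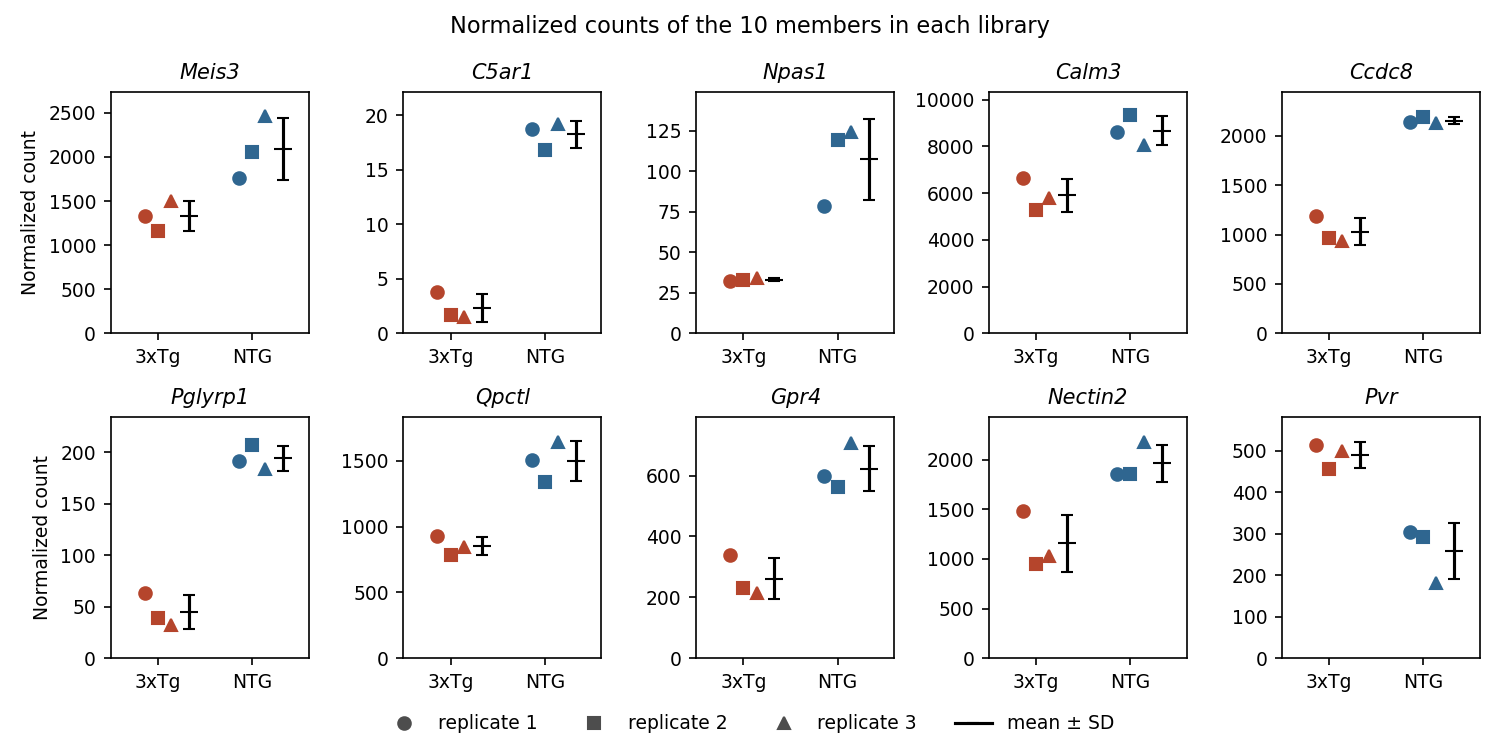
Normalized counts (y axis, from 0) of each member in the 3 3xTg (left) and 3 NTG libraries, with a symbol per replicate and bars for the mean ± SD of 3. Only Pvr has its 3xTg libraries above those of NTG, and the groups lie closest as a ratio in Meis3, with 1497 in the highest 3xTg library and 1762 in the lowest NTG library.

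Among the genes of innate immunity, Pglyrp1 (ENSMUSG00000030413, chr7:18871331-18890459, plus strand) had 63.1, 39.4 and 32.0 normalized counts in 3xTg, against 192, 208 and 183 in NTG. The lowest NTG library was 2.91 times the highest 3xTg library. The means were 44.8 ± 16.3 in 3xTg and 194 ± 12.3 in NTG (SD, n = 3 each), with a log2 fold change of -2.15 (0.28). C5ar1 (ENSMUSG00000049130, chr7:16246743-16259540, minus strand) was close to the detection limit. It had 4, 3 and 2 reads in the 3xTg libraries, against 16, 12 and 13 in the shallower NTG libraries, or 3.77, 1.69 and 1.49 against 18.7, 16.8 and 19.2 normalized counts. The means were 2.31 ± 1.26 in 3xTg and 18.3 ± 1.26 in NTG (SD, n = 3 each). C5ar1 passed the filter on low counts, a mean of at least 10, only through the NTG libraries, with a mean of 10.3 over the 6. The fitted log2 fold change of -2.60 (0.46) was -1.68 with an added count of 5 in place of 1.

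Gpr4 (ENSMUSG00000044317, chr7:19212538-19224174, plus strand) had 339, 231 and 215 normalized counts in 3xTg, against 600, 562 and 707 in NTG. The means were 262 ± 67.7 in 3xTg and 623 ± 75.0 in NTG (SD, n = 3 each), with a log2 fold change of -1.27 (0.20). In 3xTg, replicate 1 was the highest, and the groups stayed apart by 1.66 times between the nearest libraries.

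The adhesion genes Nectin2 and Pvr, which lie close together near the end of the window, differed in opposite directions. Nectin2 (ENSMUSG00000062300, chr7:19716644-19750483, minus strand) had 1484, 951 and 1030 normalized counts in 3xTg, against 1851, 1855 and 2179 in NTG, with means of 1155 ± 288 in 3xTg and 1962 ± 188 in NTG (SD, n = 3 each). Replicate 1 of 3xTg lay between the other 3xTg libraries and NTG, and the log2 fold change was -0.79 (0.17). Pvr (ENSMUSG00000040511, chr7:19903578-19921160, minus strand) had 514, 456 and 500 normalized counts in 3xTg, against 303, 292 and 182 in NTG. The means were 490 ± 30.6 in 3xTg and 259 ± 66.9 in NTG (SD, n = 3 each), with a log2 fold change of 0.95 (0.21). The spread was widest in NTG, where replicate 3 was the lowest.

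Of the transcription factors, Npas1 (ENSMUSG00000001988, chr7:16455721-16477728, minus strand) was at 32.0, 33.2 and 34.2 normalized counts in 3xTg, against 78.4, 119 and 124 in NTG. The 3xTg libraries were nearly equal, and NTG replicate 1 was the NTG library nearest to them. The means were 33.1 ± 1.08 in 3xTg and 107 ± 25.1 in NTG (SD, n = 3 each), with a log2 fold change of -1.64 (0.27). Meis3 (ENSMUSG00000041420, chr7:16175090-16186504, plus strand) had 1327, 1165 and 1497 normalized counts in 3xTg, against 1762, 2059 and 2460 in NTG. The means were 1330 ± 166 in 3xTg and 2094 ± 350 in NTG (SD, n = 3 each), and the log2 fold change was -0.65 (0.15).

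Calm3 (ENSMUSG00000019370, chr7:16915379-16924114, minus strand) was the most abundant member, with 6654, 5280 and 5786 normalized counts in 3xTg, against 8623, 9330 and 8080 in NTG. The means were 5907 ± 695 in 3xTg and 8678 ± 627 in NTG (SD, n = 3 each). Its log2 fold change, -0.56 (0.11), was the smallest of the members and lay closest to the fold threshold. Calm2, which encodes the same protein from another chromosome and was not part of the choice, was not called by limma, at a log2 fold change of 0.22 (0.13; adjusted p = 0.319). It had 7110, 9721 and 8883 normalized counts in 3xTg, against 7058, 7959 and 6863 in NTG, and the groups overlapped. A calmodulin pseudogene, Gm5881, matched the Calm3 transcripts at 96.2% over 367 bases and held 4.46 to 6.19 normalized counts in 3xTg and 7.40 to 16.8 in NTG.

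Qpctl (ENSMUSG00000030407, chr7:19139702-19149291, minus strand) had 926, 786 and 842 normalized counts in 3xTg, against 1506, 1341 and 1646 in NTG. The means were 851 ± 70.7 in 3xTg and 1498 ± 153 in NTG (SD, n = 3 each), with a log2 fold change of -0.81 (0.13). Ccdc8 (ENSMUSG00000041117, chr7:16992708-16997516, plus strand) had 1191, 963 and 935 normalized counts in 3xTg, against 2139, 2189 and 2125 in NTG. Its NTG libraries were almost level, and every one was at least 1.78 times the highest 3xTg library. The means were 1030 ± 140 in 3xTg and 2151 ± 33.6 in NTG (SD, n = 3 each), with a log2 fold change of -1.07 (0.12).

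Levels of different genes were compared per kb of transcript, as the mean normalized count per kb (SD, n = 3 each). In 3xTg, Calm3 was at 2579 ± 303, Meis3 at 691 ± 86.2, Nectin2 at 422 ± 105, Qpctl at 314 ± 26.1 and Ccdc8 at 214 ± 29.2. Below them, on the same scale in 3xTg, were Pvr at 169 ± 10.5, Gpr4 at 90.8 ± 23.5, Pglyrp1 at 44.5 ± 16.1, Npas1 at 12.1 ± 0.394 and C5ar1 at 0.911 ± 0.497. The levels per kb in NTG had the same order but for Pvr, which at 89.1 ± 23.0 came after Gpr4 at 216 ± 26.0 and Pglyrp1 at 193 ± 12.2. Mean ± SD overlapped between neighbours in this order for Nectin2 and Qpctl in 3xTg and for Gpr4 and Pglyrp1 in NTG.

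In the whole window, 88 genes were tested and 14 were called (15.9%), 12 lower and 2 higher in 3xTg, against 2.80% of all tested genes. Since these calls chose the window, nothing further is read from the share. The next windows in rank by count were chromosome 17 from 20 to 25 Mb, with 13 of 97 genes called, and chromosome 18 from 35 to 40 Mb, with 13 of 122. By share, 8 of the 536 windows with a tested gene were above it, among them chromosome 7 from 115 to 120 Mb, with 10 of 41 called (24.4%), and chromosome 12 from 20 to 25 Mb, with 6 of 33 (18.2%); the other 6 had 18 tested genes or fewer. In the windows beside it on chromosome 7, 2 of 25 genes were called from 10 to 15 Mb and 1 of 27 from 20 to 25 Mb. By the adjusted p, Meis3 was the member nearest to the threshold, and the first gene outside was Inafm1, with 557 ± 80.5 normalized counts in 3xTg and 918 ± 165 in NTG (SD, n = 3 each) and a log2 fold change of -0.71.

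**Figure D2:**
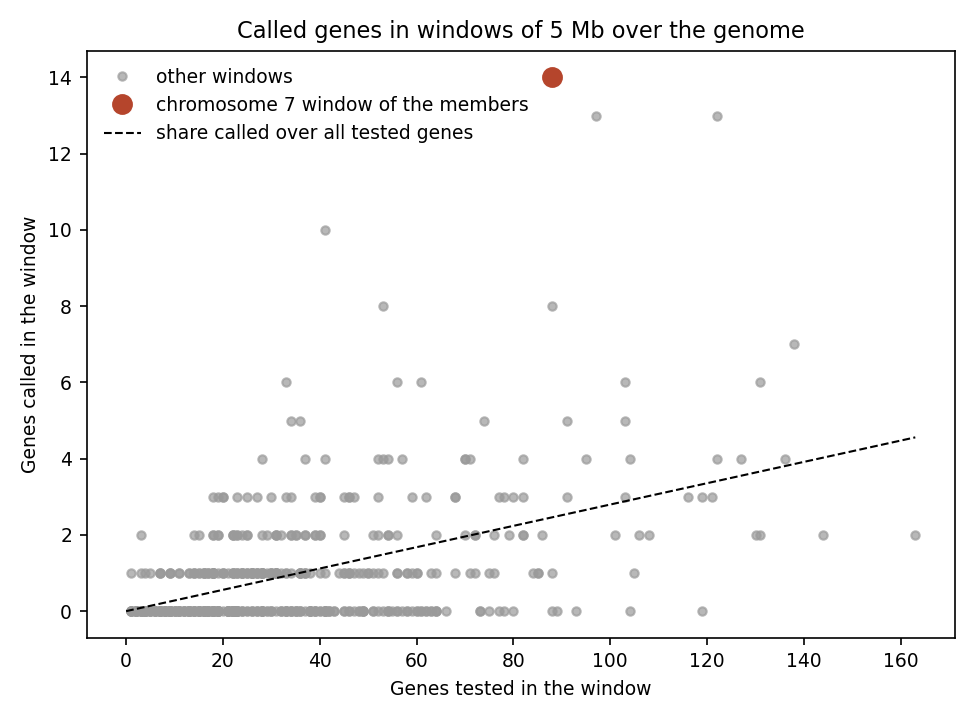
Number of tested genes (x axis) and of called genes (y axis) in windows of 5 Mb over the genome, 1 point a window, with the chromosome 7 window in red and a dashed line for the share called over all tested genes. The chromosome 7 window has 14 called of 88 tested genes, and the next windows have 13 of 97 and 13 of 122.

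The other called genes of the window were Dact3, 9330104G04Rik, Gm17826 and Gm16251. Dact3, an antagonist of Wnt signalling, had 1389, 1020 and 1192 normalized counts in 3xTg, against 1753, 2216 and 1853 in NTG, a log2 fold change of -0.70 (0.14). With the trend of each library with GC content removed it was -0.30, and Dact3 was not called. The non-coding 9330104G04Rik next to it had 2.83, 19.1 and 14.9 normalized counts in 3xTg, against 69.0, 75.7 and 71.0 in NTG, a log2 fold change of -2.77 (0.56). Gm17826, a pseudogene within Arhgap35, had a log2 fold change of -1.51 (0.33), and Arhgap35 itself 0.22 (0.15; not called). Gm16251 is annotated on the strand opposite to Pvr and overlaps the start of Pvr by 432 bases. It had 70.7, 42.2 and 54.3 normalized counts in 3xTg, against 15.2, 1.40 and 0 in NTG. The log2 fold change was 4.03 (0.84), or 2.78 with an added count of 5. With an NTG mean of 5.54, Gm16251 passed the filter on low counts only through the 3xTg libraries. Both genes of this pair were higher in 3xTg. Gm45104, named after its values were seen, had 985, 1295 and 1182 normalized counts in 3xTg, against 264, 114 and 4.44 in NTG, and with a log2 fold change of 4.39 (1.10) was not called. Strand-specific counting is not stated, and reads of Pvr and Gm16251 within the overlap cannot be told apart. Qpctl likewise shares 471 bases with Fbxo46 on the other strand, which was at 1336, 1194 and 1275 normalized counts in 3xTg, against 1073, 1150 and 1118 in NTG, a log2 fold change of 0.19 (0.11; not called).

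**Figure D3:**
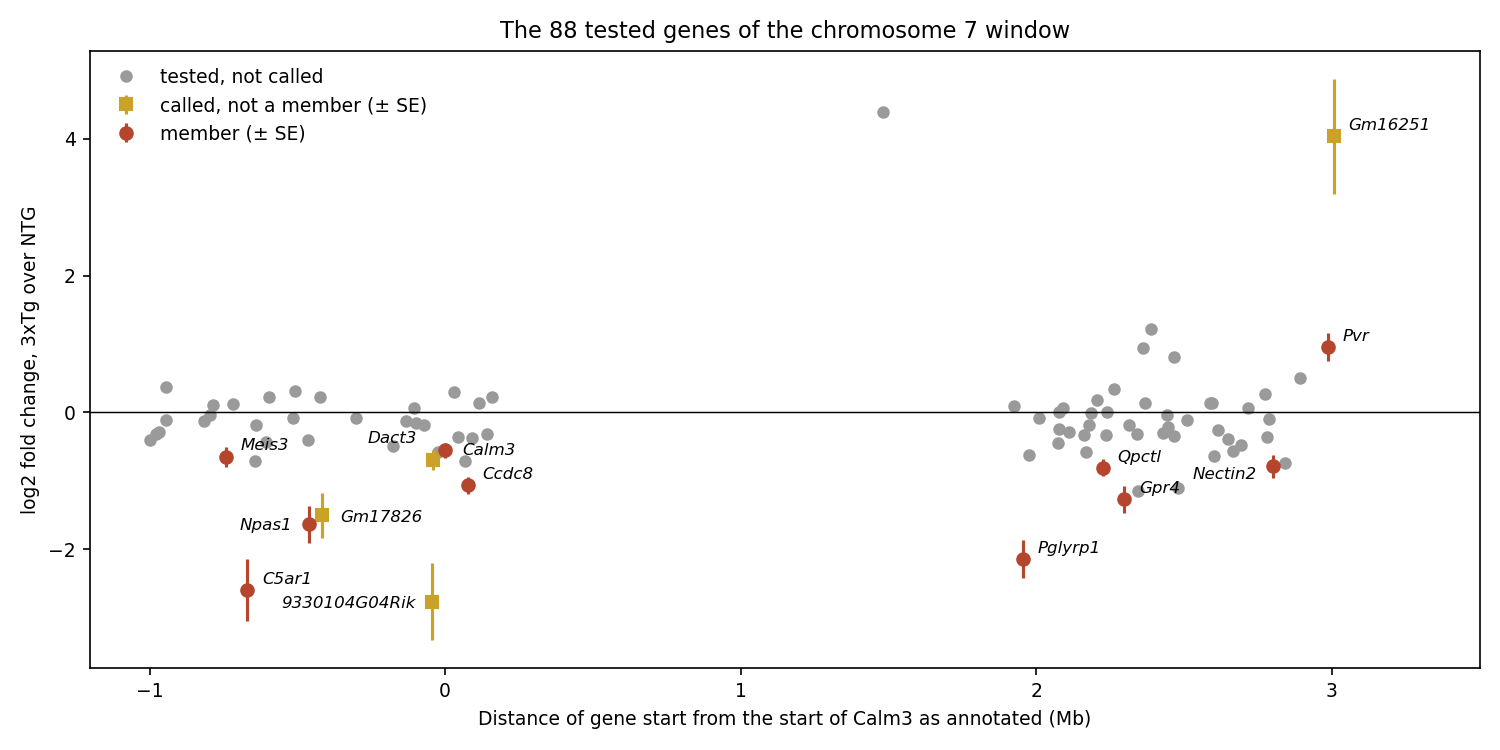
The log2 fold change, 3xTg over NTG, of the 88 tested genes of the window (y axis) by the distance of their annotated start from that of Calm3 (x axis, Mb), with members in red, other called genes in yellow and genes not called in grey, bars being standard errors. The tested genes lie in separate stretches of 39 and 49 genes, each with 5 members, and Pvr and Gm16251 at the right end are the called genes above 0.

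Of the nearest tested genes on either side of the members, Gm16251 alone was called. Most tested genes were not called anywhere, the share called over all of them being 2.80%. Around Nectin2, Tomm40, a mitochondrial import pore gene, had a log2 fold change of -0.10 (0.12), and Bcam, an adhesion gene, -0.74 (0.24). Around Gpr4, Eml2 had 0.33 (0.34) and Opa3 -0.18 (0.09). Ccdc61 beside Pglyrp1 had -0.62 (0.16) and Mill2 on its other side 0.09 (0.26). Dhx34, which lies between Meis3 and C5ar1, had 0.12 (0.12). Of the neighbours not given so far, Pnma8c had -0.71 (0.23), Gng8 -0.58 (0.21), Tmem160 -0.40 (0.17), Ppp5c -0.37 (0.11) and Snrpd2 -0.33 (0.14). Those above 0 were Bcl3 at 0.50 (0.39), Pnma8b at 0.29 (0.12) and Slc8a2 at 0.10 (0.36). Apoe, which encodes an apolipoprotein and lies on the far side of Tomm40 from Nectin2, was named after its values were seen. It had 1407030, 780832 and 869246 normalized counts in 3xTg, against 1304816, 1074016 and 1460008 in NTG, a log2 fold change of -0.37 (0.31), and was not called.

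The window also differed from the rest of the genome in base composition. The choice did not use base composition directly, but it used fold changes, which went with GC content. The median GC content of the transcripts was 56.3% in its 88 tested genes, 53.9% in the members and 49.5% in all tested genes. Fold changes went with GC content over the whole table, with a median log2 fold change of -0.20 in the fifth of genes with the highest GC content and 0.25 in the fifth with the lowest. The median log2 fold change of the window was -0.20, against 0.01 in all tested genes. When the trend of each library with GC content was removed, it was -0.04, against 0.03 in all tested genes. The 78 tested genes of the window that were not members had a median of -0.17, and of 0.01 with the trend removed. The median of the members was -0.94, and -0.83 with the trend removed. Calm3 and Meis3, with transcript GC contents of 58.3% and 59.4%, had log2 fold changes of -0.33 and -0.40 with the trend removed, short of the threshold, and the called genes of the window were 10 in place of 14. Npas1, with the highest GC content of the members (61.8%), had -1.33, and Nectin2 (58.0%) had -0.57. In the other members the fold change with the trend removed was -2.60 (C5ar1), -2.04 (Pglyrp1), -1.15 (Gpr4), -0.96 (Ccdc8), -0.70 (Qpctl) and 0.94 (Pvr).

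The number of members called also depended on the method. It was 10 with edgeR (2.84% of all tested genes), 9 with DESeq2 (7.14%), 9 with scaling by trimmed mean of M values (2.79%), 8 with the GC trend removed (2.68%), 7 at a mean of at least 50 (2.42%) and 5 at a fold threshold of 1 (1.75%). Many of the calls did not hold with a single library left out, which also makes its group smaller. Without 3xTg replicate 1, all 10 members were called (10.9% of all tested genes). Without 3xTg replicate 2 or replicate 3, only Ccdc8 and Pglyrp1 were (0.873% and 0.889% of all). Without NTG replicates 1, 2 and 3 in turn, 4, 5 and 7 members were called (1.10%, 1.45% and 2.03% of all). No member could change sign with a library left out, since the 3xTg and NTG libraries did not overlap in any of the 10. Fold changes then ranged over -2.42 to -1.94 in Pglyrp1, -1.18 to -1.01 in Ccdc8 and 0.72 to 1.08 in Pvr.

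**Figure D4:**
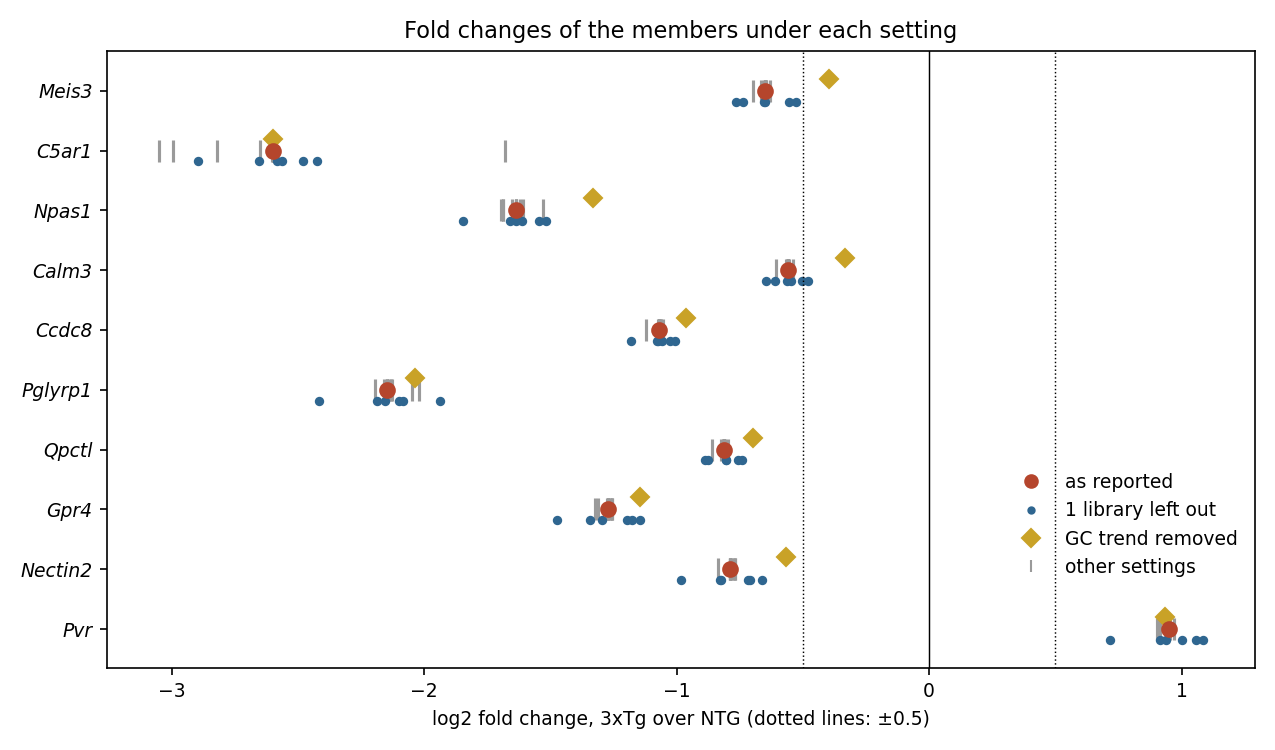
The log2 fold change, 3xTg over NTG (x axis), of each member as reported (red), with 1 library left out (blue), with the GC trend removed (yellow) and under the other settings (grey). All values of the lower members stay below 0 and those of Pvr above 0, while Calm3 and Meis3 pass inside the dotted line at -0.5 when the GC trend is removed (-0.33 and -0.40). The signs of the blue values were fixed in advance, since the groups do not overlap in any member.

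Several lists of markers of cells other than NSPCs had fold changes mostly below 0. All 12 endothelial markers had fold changes below 0 and 4 were called lower, with summed levels of 4375 to 7494 normalized counts in 3xTg and 9475 to 11600 in NTG. Of 9 pericyte and smooth muscle markers 8 were tested, all 8 were below 0 and 2 were called lower (sums of 19666 to 33494 in 3xTg and 35574 to 45165 in NTG). All 8 microglia markers were below 0 and 1 was called lower (sums of 5476 to 7190 in 3xTg and 6799 to 8104 in NTG). Of 8 markers of neutrophils and other myeloid cells 1 passed the filter, Ly6g was at 0 in every library, and the sums were 57.2 to 74.4 in 3xTg and 45.8 to 130 in NTG. All 5 red cell markers were below 0 and none was called (sums of 715 to 2058 in 3xTg and 1872 to 3209 in NTG). Of 7 fibroblast and meningeal markers 5 were tested, all 5 were below 0 and 1, Mgp, was called lower (log2 fold change -1.83). The sums overlapped at 5406 to 6764 in 3xTg and 4816 to 11428 in NTG. They were dominated by Pdgfra, which is also listed as an oligodendrocyte lineage marker. Pdgfra had 3347, 4970 and 5369 normalized counts in 3xTg, against 6628, 9325 and 2115 in NTG, and sums without it were not taken. Of 7 mature neuron markers 6 were below 0 and none was called (sums of 4167 to 5012 in 3xTg and 5101 to 6058 in NTG). In bulk samples, fewer cells of a type and less RNA per cell cannot be told apart. The part of these marker levels in the values of Gpr4, Pglyrp1, C5ar1 and the other members was not tested. In 7 of the 9 lower members, 3xTg replicate 1 was the 3xTg library nearest to NTG, Npas1 and Meis3 being the others. By the mean log2 level of the tested genes, the same was so in the endothelial, pericyte, microglia, mature neuron, fibroblast and red cell lists. By summed level, 3xTg replicate 3 was instead the highest 3xTg library in the mature neuron (5012) and fibroblast (6764) lists. Along the leading principal component of all tested genes, 3xTg replicate 1 was again the nearest to NTG. The share of all tested genes with this order was not counted.

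**Figure D5:**
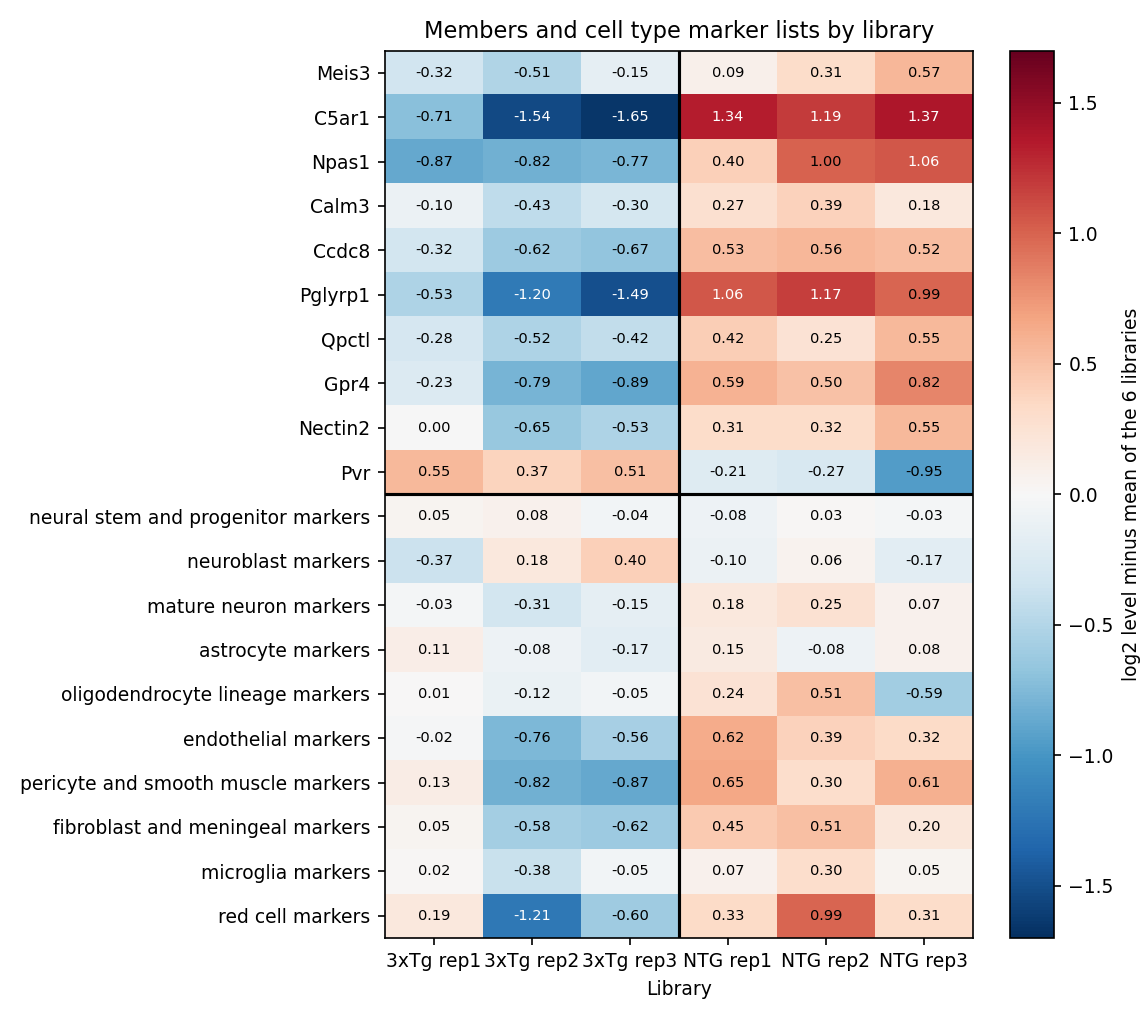
The log2 level of each member (upper rows) and the mean log2 level of the tested genes of each marker list (lower rows), centred on the 6 libraries, in the 3xTg (left) and NTG libraries. The endothelial markers are at -0.02, -0.76 and -0.56 in 3xTg and at 0.62, 0.39 and 0.32 in NTG, and the mean of the NSPC markers, whose members move in both directions, lies between -0.08 and 0.08.

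Relatives and partners of the members outside the window were then examined, since the choice did not use them. Of 95 listed genes, 1 was in the window, 20 were below the filter and 74 were tested. By limma, 1 was higher, 1 was lower and 72 did not pass, a share called of 2.70%, against 2.80% of all tested genes. At an unadjusted p under 0.05 there were 24, or 32.4%, against 23.4% of all tested genes. The median log2 fold change of the 74 was -0.04, against 0.01 in all tested genes.

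The lower gene was Mylk, the calmodulin-dependent myosin light chain kinase of smooth muscle, among 22 tested calmodulins and calmodulin targets. It had 221, 125 and 110 normalized counts in 3xTg, against 541, 651 and 478 in NTG, a log2 fold change of -1.92 (0.26; limma adjusted p = 0.00453), and stayed called without each library in turn. The pericyte and smooth muscle markers given above were lower in summed level in 3xTg, and their part in the level of Mylk was not tested. The higher gene was C4b, complement component 4, among 12 tested complement genes. It averaged 12673 ± 2403 normalized counts in 3xTg and 7237 ± 1531 in NTG (SD, n = 3 each), a log2 fold change of 0.81 (0.17; limma adjusted p = 0.0386). Leaving out single libraries moved the limma adjusted p of C4b over 0.00654 to 0.150. The call was lost without 3xTg replicate 2 or 3 or NTG replicate 1 or 2, and with scaling to equal medians (adjusted p = 0.0531). Reads that C4b shares with its near-identical paralog C4a make its level uncertain.

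The closest partners of the members did not pass. C3, whose cleavage leads to that of C5, was at 101 ± 48.0 normalized counts in 3xTg and 255 ± 42.5 in NTG (SD, n = 3 each; log2 fold change -1.45, limma adjusted p = 0.0664). The ligand source of C5ar1, Hc, which encodes C5, had a log2 fold change of 0.28, and C5ar2, the second C5a receptor, was below the filter with 3.42 ± 2.50 in 3xTg and 10.5 ± 4.79 in NTG (SD, n = 3 each). Of the partners of Ccdc8 in the 3M complex, Cul7 had -0.14 and Obsl1 -0.38. Qpct, the secreted relative of Qpctl, had -0.09, and Cd47, a substrate of QPCTL in human cells, 0.01. Nectin3, which binds Nectin2 across cell contacts, had 0.26 and Nectin1 -0.37. Tigit, Cd226 and Cd96, the lymphocyte receptors of these adhesion molecules, were below the filter. Meis1 and Meis2, of the same family as Meis3, had 0.16 and 0.12. Arnt and Arnt2, which dimerise with bHLH-PAS factors, had 0.06 and 0.14. Other genes of these lists, not named here, differed more, though none was called in the lists that follow. Log2 fold changes of the tested genes ranged over -0.38 to 0.34 in the 3M complex list. The ranges were -0.52 to 0.01 for glutaminyl cyclases and their substrates and -0.68 to 0.27 for nectins, nectin-like molecules and their receptors.

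Outside the window, the genes whose levels over the 6 libraries most resembled the mean standardized profile of the 9 lower members, among 14485 candidates with a mean of at least 50, were Anks1 (Pearson r = 0.995), Stk10 (0.993) and 4930481B07Rik (0.993). For Pvr they were Nxpe3 (0.991), Srgap1 (0.991) and Itpa (0.991). These values describe 6 libraries in groups of 3 that differ in depth as well as genotype, and carry no test. Stk10, a serine/threonine kinase gene, had 309, 292 and 293 normalized counts in 3xTg, against 385, 402 and 417 in NTG.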

How the data were processed

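Bulk RNA-seq was read from a table of 3 3xTg and 3 NTG libraries. The authors aligned reads to GRCm38 (mm10) with HISAT2, assigned them with featureCounts and deposited normalized counts from DESeq2, a depth-scaled signal. Versions and strand setting are not given in the sources used here. Deposited log2 fold changes with their errors, p-values and score columns (test statistic, weight) of the authors' comparison were not used, nor was their mean (7 columns in all). All values (100% in each library) were whole reads times 1 factor, within 0.01.

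GENCODE M21 gave positions for 55230 of the 55471 genes, leaving 241 unmatched. limma 3.58.1 (R 4.3.3) was fitted with a trend to log2(normalized count + 1) of 18664 genes, those reaching a mean of 10, with Benjamini-Hochberg adjustment, and genes were called at an adjusted p under 0.05 and a log2 fold change beyond 0.5, as in the study's methods. edgeR 4.0.16 and DESeq2 1.42.0 were run on recovered reads, and the fits were tested on simulated data. Sequences were compared with BLAST 2.17.0 and Biopython 1.88, and tables were made with Python 3.11.15. The members, the family, partner and marker lists and the tests were chosen with earlier results of these data known. Named genes were the members, called family genes, partners sharing a product, ligand or complex, other called genes of the window, nearest tested neighbours, and the 3 genes most alike in profile. Alternatives were the added count, filter, scaling, test, fold threshold, replicate block, thinned reads, GC trend and each library left out. Some genes of these lists, and part of the transgenic genotype, are not reported by name here.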

Additional observations from a re-analysis of the deposited data

How the results depend on the processing

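Signs of the 10 members held in all 17 alternatives (16 for C5ar1, which fell below the stricter filter). With a library left out, another added count or another filter they had to hold, since the groups did not overlap in any member. The number of members called was 10, with 9 under trimmed mean scaling (Meis3 lost) and DESeq2 (C5ar1 lost), 8 with the GC trend removed, 7 at a mean of at least 50, 5 at a fold threshold of 1, and 2 to 10 with a library left out. The 14 called genes of the window were 8 at a mean of at least 50, 8 at a fold threshold of 1 and 2 to 23 with a library left out (23, 3 and 2 without 3xTg replicates 1, 2 and 3, and 6 and 5 without NTG replicates 1 and 2). Genes overlapping the window in place of starting there gave the same 88. The 2 family and partner genes were 4 with DESeq2, 1 with equal medians, 1 at a fold threshold of 1 and 1 to 10 with a library left out (10 without 3xTg replicate 1). Over all tested genes, 522 calls were 1333 with DESeq2, 326 at a fold threshold of 1 and 163 to 2030 with a library left out. The cause of these differences was not tested.

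The groups share replicate numbers. After the group means were removed, the same-numbered libraries correlated at 0.06, 0.20 and 0.04, and those of different numbers at -0.18 to 0.11. These values do not settle whether the numbers pair the samples, and the main fit used no pairing. With a replicate block, 10 members, 17 genes of the window and 752 genes in all (4.03%) were called. Depth limits C5ar1 most, at 2 to 16 reads per library. With the reads of all libraries thinned to 32731794, 10 members were called. An exact permutation test of 3 samples against 3 could not go below a p of 0.1.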
